A study of Mus musculus with 2 samples.

Results

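The Kruppel-like factor genes examined here were Klf2, Klf3, Klf4, Klf6, Klf7, Klf9, Klf10, Klf11, Klf13 and Klf15, and GATA4 occupied sites (OS) were assigned to them by position. An OS was counted for a gene when its midpoint lay in the gene body or within 50 kb of either end. By this rule, 11 of the 4409 common OS fell at 6 of the 10 genes. GATA4 ChIP-seq had been carried out on whole livers of mice of the strain C57BL/6 x Sv129, which the study calls a mixed background. By the labels the mice were aged 2 to 3 months, whereas the methods of the study give a slightly older range. The labels name no mutant allele and no treatment. Input DNA from liver of the same strain and age, taken without antibody, was the background for peak calling. The study called peaks in each of a pair of biological replicates, each made of more than a single liver, and in their merged reads, and kept peaks by how well their ranks matched between the replicates. The lists used here hold no value per replicate. The common list holds the peaks that both peak callers, SPP and MACS2, found, with the coordinates of SPP. Since whole liver was used, OS held by few cells and OS weakly held by many cells cannot be told apart. The cell type behind the 11 OS was not measured. After Gata4 excision from hepatocytes, the study found GATA4 lost at factor X, FOG1, HNF4α and HNF6, which it reads as occupancy in hepatocytes only. No Kruppel-like factor gene was among those sites.

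Kruppel-like factors are transcription factors with C-terminal zinc fingers that bind GC-rich sequence and CACCC boxes. They fall into classes by the cofactors they recruit: Klf3 binds the corepressor CtBP, Klf2, Klf4, Klf6 and Klf7 belong to a class that recruits acetyltransferases, and Klf9, Klf10, Klf11 and Klf13 bind the corepressor SIN3. Klf15 stands outside these classes and is known in liver for its part in gluconeogenesis and amino acid breakdown during fasting. GATA factors bind WGATAR, a short motif made of the core GATA with A or T before it and A or G after it. In the liver, GATA4 is known from hepatocytes and from sinusoidal endothelium.

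The leading OS of each of the 6 occupied genes is shown here, because these sequences carry the GATA words described in the paragraphs that follow. Each is the plus strand of mm9, cut to the central 300 bases where the OS was wider, and capitals mark WGATAR. A word on the minus strand appears in its reverse complement, so that its capitals hold TATC in place of the core.
Klf2, number 1517, chr8:74878314-74878450: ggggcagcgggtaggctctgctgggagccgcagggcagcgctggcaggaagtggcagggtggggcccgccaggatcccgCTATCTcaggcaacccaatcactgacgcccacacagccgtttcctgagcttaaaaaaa
Klf3, number 1164, chr5:65203376-65203561: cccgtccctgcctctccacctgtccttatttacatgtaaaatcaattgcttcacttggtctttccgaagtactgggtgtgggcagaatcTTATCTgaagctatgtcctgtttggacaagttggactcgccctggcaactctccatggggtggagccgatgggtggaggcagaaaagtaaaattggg
Klf7, number 122, chr1:64087533-64087832: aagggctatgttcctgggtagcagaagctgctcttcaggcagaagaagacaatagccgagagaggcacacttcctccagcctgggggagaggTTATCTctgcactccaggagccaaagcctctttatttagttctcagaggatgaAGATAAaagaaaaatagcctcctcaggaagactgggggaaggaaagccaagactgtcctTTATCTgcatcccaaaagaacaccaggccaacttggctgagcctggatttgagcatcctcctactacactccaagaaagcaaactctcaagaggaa
Klf9, number 3934, chr19:23210282-23210581: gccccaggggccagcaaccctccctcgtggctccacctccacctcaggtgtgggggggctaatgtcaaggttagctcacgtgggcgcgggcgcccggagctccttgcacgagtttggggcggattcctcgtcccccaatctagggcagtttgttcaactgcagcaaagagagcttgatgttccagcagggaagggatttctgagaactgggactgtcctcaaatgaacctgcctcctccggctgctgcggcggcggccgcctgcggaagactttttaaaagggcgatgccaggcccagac
Klf13, number 34, chr7:71041779-71042078: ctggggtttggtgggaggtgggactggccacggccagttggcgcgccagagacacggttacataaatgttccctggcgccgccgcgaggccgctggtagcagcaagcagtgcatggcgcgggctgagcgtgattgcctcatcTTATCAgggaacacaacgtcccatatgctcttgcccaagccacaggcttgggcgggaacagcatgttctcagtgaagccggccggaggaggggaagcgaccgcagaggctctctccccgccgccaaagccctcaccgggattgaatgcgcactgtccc
Klf15, number 498, chr6:90413495-90413759: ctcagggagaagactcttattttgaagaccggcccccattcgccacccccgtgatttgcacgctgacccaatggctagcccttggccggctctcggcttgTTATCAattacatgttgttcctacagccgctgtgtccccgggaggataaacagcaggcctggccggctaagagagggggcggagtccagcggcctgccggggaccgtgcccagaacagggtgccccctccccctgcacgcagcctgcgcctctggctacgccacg

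Of the 10 genes, 60.0% had at least 1 common OS (Wilson 95% interval 31.3 to 83.2). Among all 22380 protein-coding genes of the annotation, the same rule found an OS at 27.7%. Klf3 and Klf15, 2 of the 10, had 3 OS each, while 3.24% of all protein-coding genes had 3 or more. Klf7 had 2 OS, and Klf2, Klf9 and Klf13 had 1 each. An OS lay in the gene body itself at 4 genes, Klf3, Klf7, Klf13 and Klf15, compared with 7.67% of all protein-coding genes. The windows searched were 103 to 193 kb long. Together they held 8.81 OS per Mb, whereas the merged windows of all protein-coding genes held 2.33 per Mb. These counts describe 1 peak list without replicate values and genes chosen with earlier results known, so no test was made on them.

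The other 7 Kruppel-like factor genes lowered the share. Only Klf1 and Klf16 of these had an OS in their windows. The whole family stood at 8 of 17 genes, 47.1% (Wilson 95% interval 26.2 to 69.0), beside 27.7% of all protein-coding genes. The genes examined here were chosen with earlier results known, so neither their interval nor this one is a test against that share. For the same reason, the lower share of the whole family cannot be separated from that choice. The windows of the other 7 genes held 3 OS, or 2.55 per Mb. The OS counted for Klf1, the erythroid member of the family, lay 16 bp from a TSS of Farsa, and the OS counted for Klf16 lay 227 bp from a TSS of Rexo1 and 648 bp from a TSS of Atp8b3. None of the 3 was nearest to Klf1 or Klf16. Klf5, Klf8, Klf12, Klf14 and Klf17 had no OS. Among the 9 related Sp genes, which bind GC boxes, Sp1, Sp2, Sp6 and Sp7 had OS in their windows, but only 4 different OS in all, since the neighbours Sp1 and Sp7 shared their pair and so did Sp2 and Sp6.

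**Figure D1:**
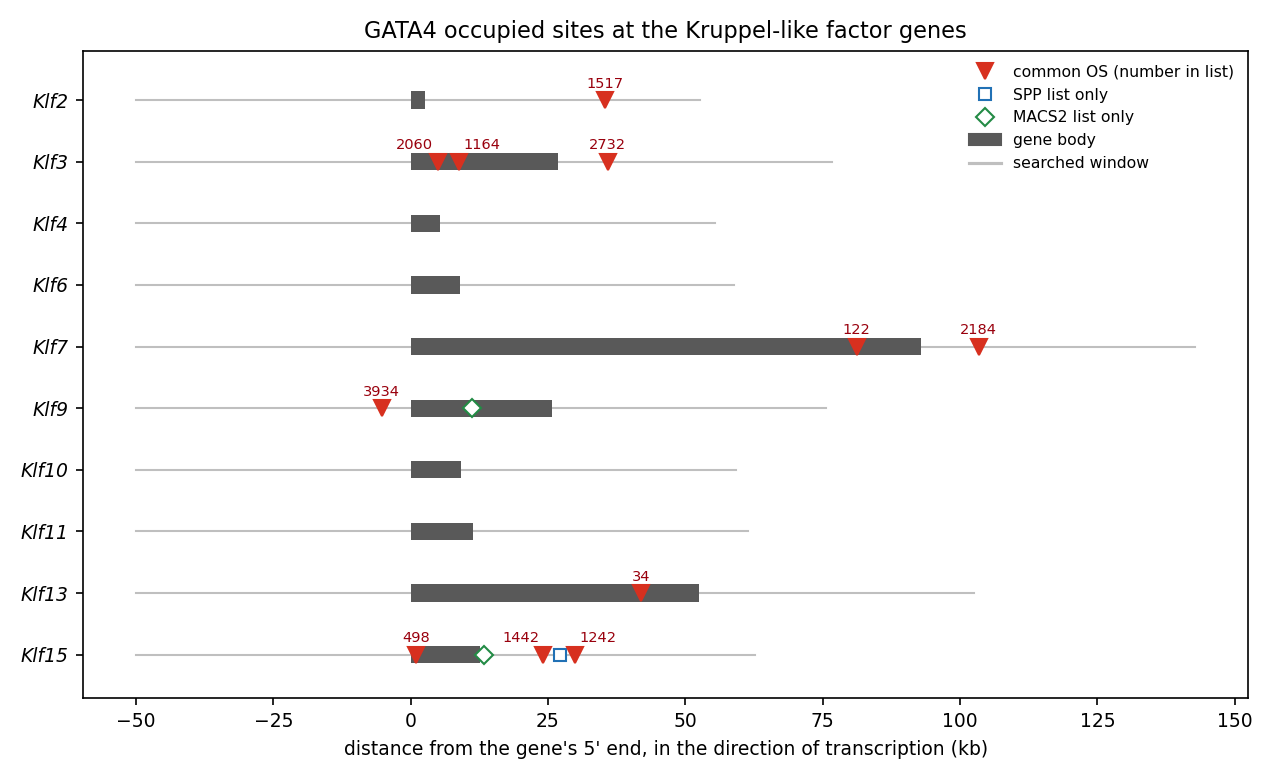
Map of the 10 genes, with the distance from the 5′ end of the gene body in kb on the x axis and 1 row per gene. Grey bars are gene bodies, thin lines the searched windows, red triangles common OS with their number in the list, and open symbols peaks of a single caller. Klf4, Klf6, Klf10 and Klf11 carry no symbol, 5 of the 11 OS sit in a gene body, 5 lie beyond the 3′ end and 1 lies before the 5′ end.

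Of the 10 genes, Klf15 had the most peaks over all 3 lists. Its leading OS, number 498 (chr6:90413495-90413759, 265 bp), lay in intron 1 of the transcript with the upstream start, 1057 bp downstream of that TSS. It held 1 TGATAA, on the minus strand and 30 bp from the midpoint, with GC at 63.8% and 17 CpG dinucleotides. Another GATA core, not part of a WGATAR, stood on the plus strand 13 bp from the midpoint. The other 2 OS lay beyond the 3′ end of Klf15. Number 1442 (chr6:90436661-90436809) was 11503 bp past the gene end and number 1242 (chr6:90442508-90442638) 17341 bp past it. Each held a single WGATAR. The word was TGATAG in number 1442, whereas number 1242 held TGATAA. Number 1242 also had a GATA core that was not part of a WGATAR, 43 bp from the midpoint. These 2 OS were 5838 bp apart and both lay in intron 1 of a processed transcript of Aldh1l1, a neighbouring gene on the same strand that encodes a folate enzyme. The nearest protein-coding TSS was that of Klf15 for both, but the TSS of this processed transcript was only 314 bp from number 1442. The nearest gene of these 2 OS therefore depends on whether non-coding transcripts are counted.

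Klf15 also had a peak that only SPP listed and a peak that only MACS2 listed. The SPP peak, number 3490 of 4811 (chr6:90439557-90439876), lay between the downstream OS and held 3 WGATAR words. The MACS2 peak, number 4759 of 5867, lay 686 bp past the end of Klf15 and held no WGATAR. With these, 5 distinct peaks stood at the gene.

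Klf3, the CtBP-binding repressor known from erythroid cells and fat, was the other gene with 3 OS. Number 1164 (chr5:65203376-65203561) was the OS closest to any member TSS, 110 bp upstream of an internal start used by another of its transcripts and within intron 1 of the 2 transcripts that start upstream. Its AGATAA, on the minus strand, sat 1 bp from the midpoint, and the site also held 3 CACCC boxes. Number 2060 (chr5:65199480-65199601) lay in the same intron, 3928 bp closer to the 5′ end, with TGATAA 15 bp from the midpoint. Number 2732 (chr5:65230468-65230584) lay 9158 bp past the gene end, in no annotated gene, with AGATAG 8 bp from the midpoint. It was the only one of the 11 OS with the forkhead word TGTTTAC. In the common list, numbers 1164, 2060 and 2732 stand at 26.4%, 46.7% and 62.0% of its length.

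Klf7, a factor known from neurons and fat cells, had one of the leading OS of the whole list. Number 122 (chr1:64087514-64087851) met MACS2 peak number 68, was 338 bp wide, the widest of the 11, and lay in the last intron, intron 3, at 80281 bp from the nearest Klf7 TSS. It was the only one of the 11 with more than 1 WGATAR: 3 copies of AGATAA stood 55 bp and 2 bp before the midpoint and 57 bp after it, counted along the chromosome. Their starts were 53 and 59 bp apart, and the middle copy was on the opposite strand from the other 2. The second OS of Klf7, number 2184 (chr1:64065388-64065549), lay 10553 bp past the gene end. It held no GATA at all but 3 CACCC boxes. The nearest WGATAR was outside the OS, 132 bp from the midpoint. For both OS the nearest TSS of any kind belonged to the lincRNA Gm17427, at 11645 and 10569 bp.

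Klf13, a SIN3-binding factor known from T cells and heart, held the OS with the highest place. Number 34 of 4409 (chr7:71041778-71042079) met MACS2 peak number 13 of 5867, which puts it in the leading 0.771% and 0.222% of the 2 lists. It lay in intron 1, 27828 bp downstream of the nearest Klf13 TSS, and no other OS fell in the window. A single TGATAA on the minus strand stood 5 bp from the midpoint. The sequence was GC-rich (63.9%) with 23 CpG dinucleotides, the most of the 11. It stood ahead of the leading OS of Klf7 in both lists, with 1 WGATAR where that OS had 3.

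Klf9, a SIN3-binding factor that responds to glucocorticoids and thyroid hormone, had the OS with the lowest place in the common list. In the MACS2 list the lowest of the 11 was number 2732 of Klf3, which met peak number 3338. Number 3934 (chr19:23210272-23210591) stood at 89.2% of the common list, had the width of 320 bp that 25.6% of all common OS share, and lay 5285 bp upstream of the Klf9 TSS. It met MACS2 peak number 2795, which was 2963 bp wide, the widest of the MACS2 peaks at these genes that met an OS. The OS held neither GATA nor CACCC but 4 CANNTG words (E-boxes), with GC at 62.8% and 21 CpG dinucleotides. No WGATAR was found within 500 bp centred on the midpoint either. The TSS of the processed transcript 2410080I02Rik lay closer, at 1041 bp. MACS2 alone listed another peak in intron 1 of Klf9, number 5553 of 5867 (chr19:23226688-23227248), which held 3 WGATAR words in 561 bp.

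Klf2, known in endothelium for its response to shear stress, had no OS in its short body of 2624 bp and 1 OS in its window. Number 1517 (chr8:74878314-74878450) lay 32827 bp past the gene end and inside Eps15l1, an endocytosis gene on the opposite strand, in an intron of each of 4 protein-coding transcripts. Its AGATAG, on the minus strand, stood 13 bp from the midpoint, and a CACCC box lay 10 bp from the midpoint on the other side. The Klf2 TSS was 35450 bp away and the nearest Eps15l1 TSS 46516 bp. This was the OS farthest from its member gene of all 11. Just outside the window, at 50571 bp upstream of Klf2, lay number 38 of the common list, one of its leading sites, with the Ap1m1 TSS at 28139 bp as the nearest. Number 1835 followed at 79.4 kb, 384 bp from a TSS of Ap1m1.

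No peak of any of the 3 lists fell in the windows of Klf4, Klf6, Klf10 and Klf11. Klf4 and Klf6 belong to the acetyltransferase-binding class, known for epithelial barriers and for stellate cell activation after liver injury, respectively. Klf10 and Klf11 are SIN3-binding factors first known as TGF-beta inducible genes. The nearest common OS to Klf4 was number 1540, at 72.7 kb, and Klf4 still had the closest protein-coding TSS to it. For Klf10, Klf6 and Klf11 the nearest OS lay 267, 269 and 457 kb away. Between them, the windows of these 4 genes held 223 (Klf4), 303 (Klf6), 191 (Klf10) and 171 (Klf11) WGATAR words without an OS. By class, the acetyltransferase-binding genes had an OS at 2 of 4 members, the SIN3-binding genes at 2 of 4, and the CtBP-binding Klf3 and the unclassed Klf15 each had OS.

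All 11 OS had a member gene as the owner of the nearest protein-coding TSS. Over all 9416 pairs of a protein-coding gene and an OS in its window, that gene had the nearest TSS in 39.4%. These pairs came from 3839 OS. An OS in the windows of several genes enters several pairs but has only 1 nearest gene, so the share is kept low where genes lie densely. In 7 of the 10 windows no other gene had a protein-coding TSS, so that a nearest-gene rule had no competitor inside them. When the TSS of non-coding transcripts were admitted, 6 of the 11 OS stayed with a member, namely those of Klf2, Klf3, Klf13 and the leading OS of Klf15. The 11 OS lay 110 to 102495 bp from the nearest protein-coding TSS, with a median of 26948 bp, while the median of all common OS was 17456 bp. Only 1 of the 11 was within 1 kb of a TSS (9.09%, Wilson 95% interval 1.62 to 37.7), and 14.8% of all common OS were.

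**Figure D2:**
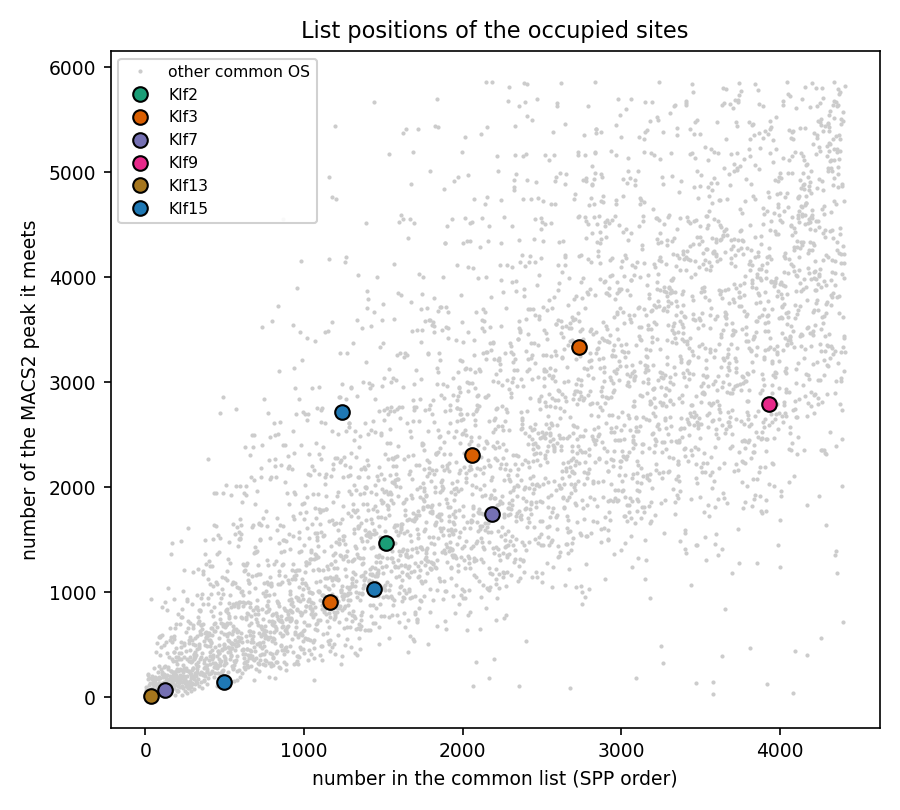
Number in the common list on the x axis and number of the MACS2 peak that the OS meets on the y axis, for all 4409 common OS (grey points) and the 11 OS at Kruppel-like factor genes (coloured by gene). The OS of Klf13, the leading OS of Klf7 and the leading OS of Klf15 sit at the lower left, near the head of both lists, and that of Klf9 lies far to the right at 3934.

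Every peak in the files carries the same display score, so the number of an OS in its list was the only measure of its place, and the files do not state what it follows. According to the methods of the study, ranking went by signal value for SPP and by p-value for MACS2. The 11 OS ran from number 34 to number 3934 with a median of 1442. They fell mostly in the leading 50% of the list, where 9 of the 11 stood. When the list was cut into 4 equal parts, 3 OS lay in the leading part, 6 in the next and 1 in each of the other two. In the MACS2 list, 10 of the 11 met a peak of the leading 50% (90.9%, Wilson 95% interval 62.3 to 98.4), against 65.4% of all common OS. Percent places differed between the lists for several sites. Number 1242 at Klf15 stood at 28.2% of the common list but 46.4% of the MACS2 list. The OS of Klf9 stood at 89.2% and 47.6%, and number 2184 at Klf7 at 49.5% and 29.8%. The lists differ in length, so these percents are not on the same scale. Over all common OS the median was number 2205 of 4409 in the common list and number 2195 of 5867 in the MACS2 list.

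Of the 11 OS, 9 held WGATAR, a share of 81.8% (Wilson 95% interval 52.3 to 94.9) beside 82.9% for the common list as a whole. The exceptions were the OS of Klf9 and number 2184 at Klf7. When each OS was replaced by an equally wide stretch 5000 bp farther right, WGATAR was found in 1 of 11, near number 1242 at Klf15. That share was 9.09% (Wilson 95% interval 1.62 to 37.7), beside 31.9% over all OS. The 9 OS held 11 words in all. AGATAA occurred 4 times, as often as TGATAA, and there were 2 copies of AGATAG and 1 of TGATAG. Of these words, 9 lay within 50 bp of the midpoint of their OS and 7 within 20 bp. A single WGATAR was found in 8 of the 9 (88.9%, Wilson 95% interval 56.5 to 98.0), and in 58.2% of all common OS with the motif. Width was not matched in these comparisons: the median was 162 bp for the 11 OS and 190 bp for all common OS. The effect of width on these shares was not tested. Accepting the core with only the base before it or only the base after it added no OS here, because neither exception held GATA, whereas over all OS the share rose to 92.9%. The 10 windows held 2533 WGATAR words in total, of which 0.434% lay in a common OS.

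**Figure D3:**
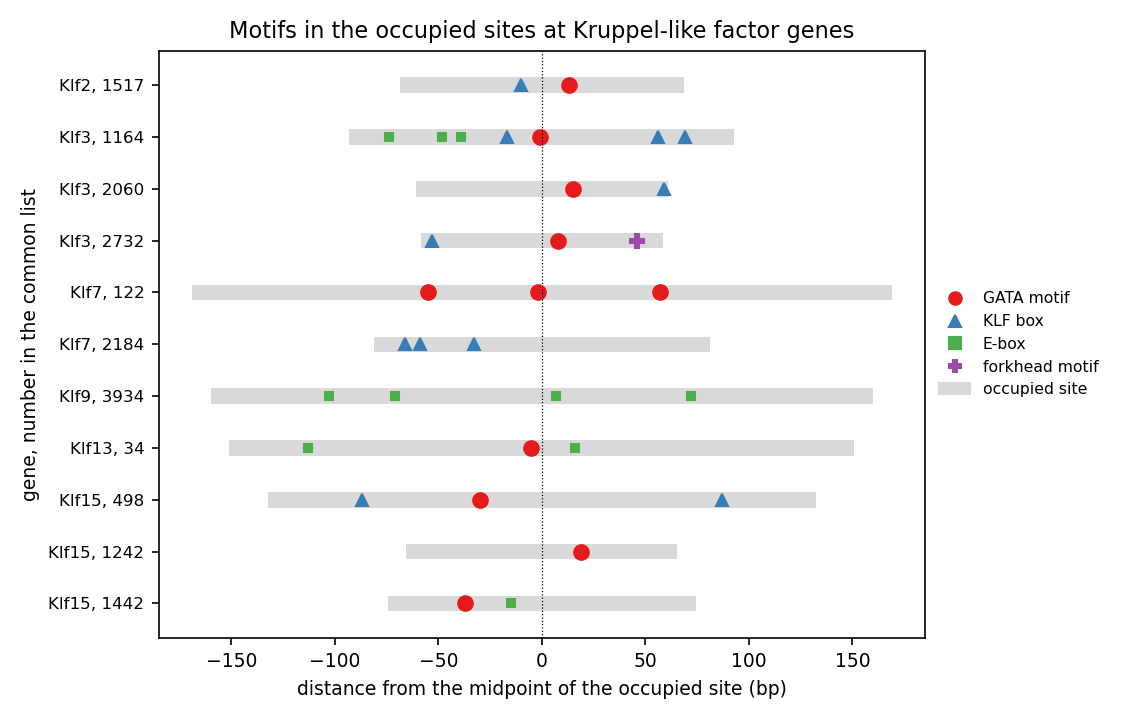
Position of motif words in the 11 OS, with the distance from the midpoint in bp on the x axis and 1 row per OS (gene, number in the common list). Grey bars are the OS, circles WGATAR, triangles CACCC (KLF box), squares CANNTG (E-box) and the cross TGTTTAC (forkhead). Circles stand within 37 bp of the midpoint except for the outer pair in number 122 at Klf7, and the rows of Klf7 number 2184 and of Klf9 have none.

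CACCC, the box that Kruppel-like factors themselves bind, occurred on either strand in 6 of the 11 (54.5%, with a 95% Wilson interval from 28.0 to 78.7), beside 38.0% of all common OS. The 6 were the OS of Klf2, all 3 of Klf3, number 2184 of Klf7 and number 498 of Klf15. In the same scan, CANNTG was present in 4 of 11 (36.4%, 15.2 to 64.6) and in 60.3% of all common OS. TGTTTAC was found in 1 of 11 and in 6.26% of all. For each of these 3 words the interval of the 11 OS included the share of all OS. These intervals count each OS as independent, although Klf3 and Klf15 gave 3 OS each, and no difference was tested. In 0 of the 11 OS did a match of these words overlap a WGATAR match. CANNTG can share its final TG with TGATAA, and such overlaps of CANNTG with WGATAR occurred in 140 of all common OS. A match says that the letters are there, and binding of a Kruppel-like factor was not measured.

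**Figure D4:**
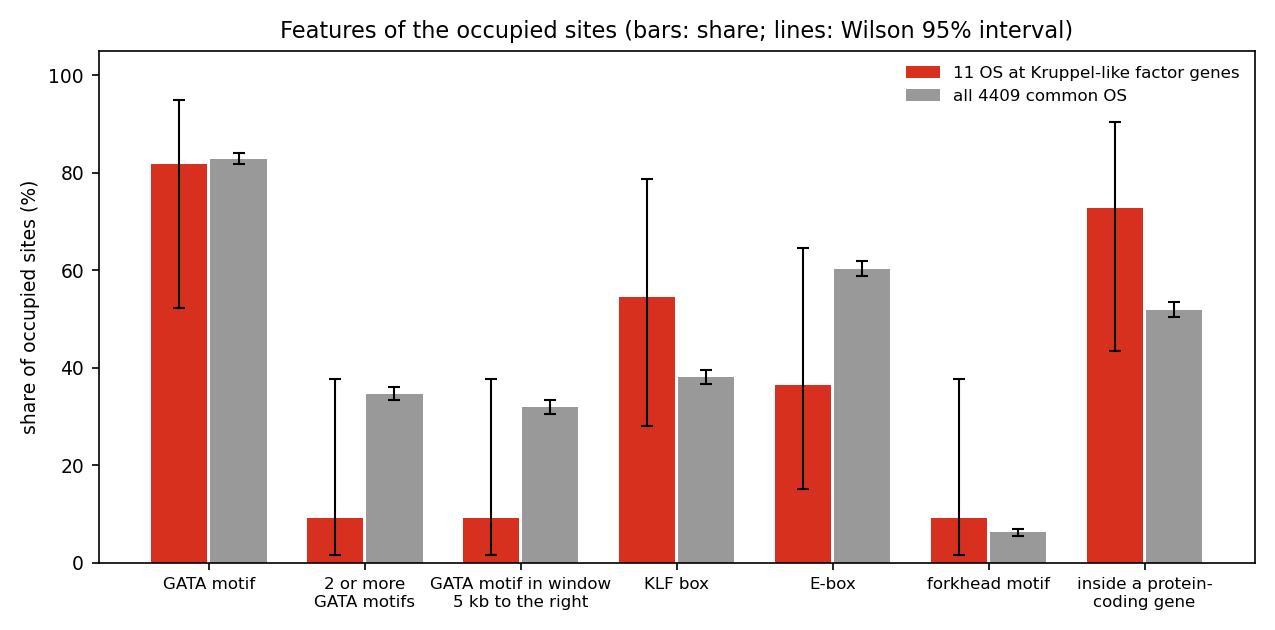
Share of OS in percent (y axis, from 0) with each feature, for the 11 OS at Kruppel-like factor genes (red) and all 4409 common OS (grey), with Wilson 95% intervals as lines. The GATA motif (WGATAR) stands at 81.8% and 82.9%, the KLF box (CACCC) at 54.5% and 38.0%, the E-box (CANNTG) at 36.4% and 60.3%, and the intervals of the 11 OS are wide throughout.

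In base composition, the OS of Klf2, Klf9 and Klf13 and the leading OS of Klf15 had a GC content of 62.8% to 64.2%, whereas number 1442 at Klf15 had 34.9% and no CpG. The median of the 11 was 54.1%, against 49.4% over all common OS. Widths ran from 117 to 338 bp with a median of 162 bp, and the median of all was 190 bp. The 3 OS with the most CpG dinucleotides, 17 to 23 each, belonged to Klf15, Klf9 and Klf13. They included the OS with the highest place in the common list and the OS with the lowest there.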

How the data were processed

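The authors aligned reads to mm9 with Bowtie 0.12.7, kept uniquely mapped reads, and ran a modified SPP and MACS2 2.0.10 on each replicate and on the merged replicates against pooled input, with thresholds set by the irreproducible discovery rate between replicates. They intersected both lists with bedtools 2.16.1. The deposited files are browser tracks with 4811 SPP, 5867 MACS2 and 4409 common peaks, whose score is 1000 throughout. Read depth is unknown from these files, and Wilson intervals at 95% cover the counting of sites only.

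Gene bodies spanned all transcripts of a gene in GENCODE M1 (37310 genes, 22380 protein-coding), on the same build as the peaks (NCBI Build 37). Sequence was read from that build with pysam 0.24.0 under Python 3.11.15, and motifs were matched exactly on both strands. Coordinates count from 1. Functions were tested on simulated intervals and sequences. Genes, lists and motifs were chosen with earlier results of these data known. All 10 genes and all their OS are named, as is any other family gene with an OS, and a gene whose TSS is nearer. The sequence printed is that of the lowest-numbered OS of each gene. Cofactor classes came from general knowledge. Input DNA has no file of its own here and entered through the peak calls. No test was made, since the lists hold no value per replicate.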

Additional observations from a re-analysis of the deposited data

How the results depend on the processing

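Of 32 alternatives, 28 kept their value within 1.5 times the count, or within the Wilson interval of the share, and 4 did not. Shortening the reach from 50 kb to 5 kb left 5 OS at 4 genes, and a reach of 10 kb left 7 OS at 5 genes. A reach of 100 kb gave 16 OS at 7 genes, the seventh being Klf4. With a reach of 10 kb, the peaks of the SPP list fell from 12 to 7. With the TSS of all transcripts, non-coding ones included, a member had the nearest TSS at 54.5% of the OS in place of 100%. The fewer OS at shorter reach follow from the smaller window. The leading 50% of the common list left 9 OS at 5 genes, without Klf9 and number 2732 of Klf3. Any overlap in place of the midpoint, protein-coding or longest transcripts, and coverage of at least 50% of the SPP peak by a MACS2 peak each left 11 OS at 6 genes. The share with WGATAR ranged from 81.8% to 90.9%. No paired analysis was possible because the columns carry no replicate. Strength of occupancy could not be compared, since scores are equal and reads were not analysed here.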
